A study of Sus scrofa with 18 samples.

Results

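The miRNAs encoded inside the HOX gene clusters were followed in the backfat, the fat layer under the skin of the back, of 18 Italian Large White pigs. Members were taken by name from the deposited table of read sequences: every mature miRNA called miR-10a, miR-10b, miR-196a, miR-196b or miR-615 of the pig (prefix ssc), with or without an arm suffix. This gave 8 of the 240 mature names in the table. miR-196b and miR-196b-5p are listed under separate precursors but hold the same 54 read sequences with the same counts, so they were treated as 1 miRNA and 7 members remained. Counts were found in every library for 7 of the 8 names. The exception was miR-196b-3p, with counts in 10 libraries and 0 listed in the other libraries. All 7 members passed the filter on low counts.

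The pigs fell into 9 of high and 9 of low backfat deposition, kept alike on the same diet and weighing 150 to 160 kg. Of the high pigs, 4 were females and 5 castrated males, aged 235 to 250 days. Of the low pigs, 5 were females and 4 castrated males, aged 233 to 249 days. Each library came from its own animal, and libraries are named here by class and replicate number (high 1 to high 9, low 1 to low 9), where the numbers carry no order. Small RNA was sequenced on an Illumina GAII, and the counts per library ran from 9601510 to 34588252. Library codes in the labels fall into 4 runs, U966 to U969 with 2 high and 2 low libraries, U074 to U077 with 2 and 2, U134 to U139 with 4 and 2, and AC485 to AC488 with 1 and 3. The labels do not say what such a run stands for.

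A miRNA is a short RNA cut from a hairpin, and it lowers the output of messenger RNAs that pair with its seed, bases 2 to 8 from its 5′ end. HOX genes are transcription factors that give cells along the head-to-tail axis their position, and adult fat depots keep depot-specific HOX patterns. The miRNAs between HOX genes are transcribed within these clusters, and several HOX transcripts are among the known targets of miR-10 and miR-196. In the RefSeq annotation of the assembly Sscrofa11.1, the flanking HOX gene spans nearest to MIR10A are HOXB3 and HOXB5. Those nearest to MIR10B are HOXD8 and HOXD3. For MIR196A-1 they are HOXB8 and HOXB13, for MIR196A-2 HOXC10 and HOXC9, and MIR615 lies inside HOXC5. A long gene span can reach past a nearer HOX gene, so these names do not give the full gene order. MIR196B was not found by name in that annotation, so the place of miR-196b was not checked. No coordinates are given, because the deposited table rests on the older build Sscrofa10.2.

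The sequences below, read from the deposited table as its exact matches to the annotated miRNA, are shown because several members share a seed. Capitals mark the seed, and the table writes T for U.
miR-10a-5p: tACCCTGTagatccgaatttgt
miR-10b: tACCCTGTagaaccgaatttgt
miR-196a: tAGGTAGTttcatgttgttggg
miR-196b: tAGGTAGTttcctgttgttggg
miR-615: tCCGAGCCtgggtctccctct
miR-10a-3p: cAAATTCGtatctaggggaat
miR-99a: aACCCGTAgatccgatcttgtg
miR-100: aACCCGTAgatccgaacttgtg

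miR-10a-5p and miR-10b have the same seed and differ by T12A over 22 bases, with positions counted from 1 at the 5′ end. miR-196a and miR-196b likewise have 1 seed and differ by A12C. No other miRNA with an exact sequence in the table has the seed of miR-10a-5p, miR-196a or miR-615. miR-10a-3p, the opposite arm of the miR-10a hairpin, has a seed of its own. miR-99a, miR-99b and miR-100 are relatives of miR-10 that lie outside HOX clusters. They carry another seed.

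The members differed widely in abundance (the plot of levels by class). Levels are counts per 1000000 (CPM) after TMM scaling, a scaling that sets libraries to a common centre, and mature lengths of 21 or 22 bases need no length correction. ssc-miR-10b had 250007 to 474799 CPM over the 18 libraries (median 322762). It alone was 28.6% to 40.4% of all counts in a library. ssc-miR-10a-5p followed at 25724 to 50823 CPM (median 33159), and miR-10b was higher in 18 of 18 libraries, 7.78 to 15.2 times by counts. miR-196b had a median of 134.1 CPM and ran from 2.67 to 240 CPM. miR-196a had a median of 75.6 CPM, with 3.73 to 177 CPM. ssc-miR-615 had a median of 23.3 CPM and ran from 10.8 to 53.9 CPM. miR-10a-3p, the minor arm, had a median of 10.6 CPM, with 4.90 to 14.5 CPM, and miR-196b-3p a median of 0.565 CPM, with 0 to 4.30 CPM.

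Neighbours in that order were not all separate. miR-196b was above miR-196a in 14 of 18 libraries, miR-196a above miR-615 in 15, and miR-615 above miR-10a-3p in 15, so in each of these neighbouring pairs the ranges overlapped. miR-10b, miR-10a-5p and miR-196b kept their order in all 18 libraries.

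**Figure D1:**
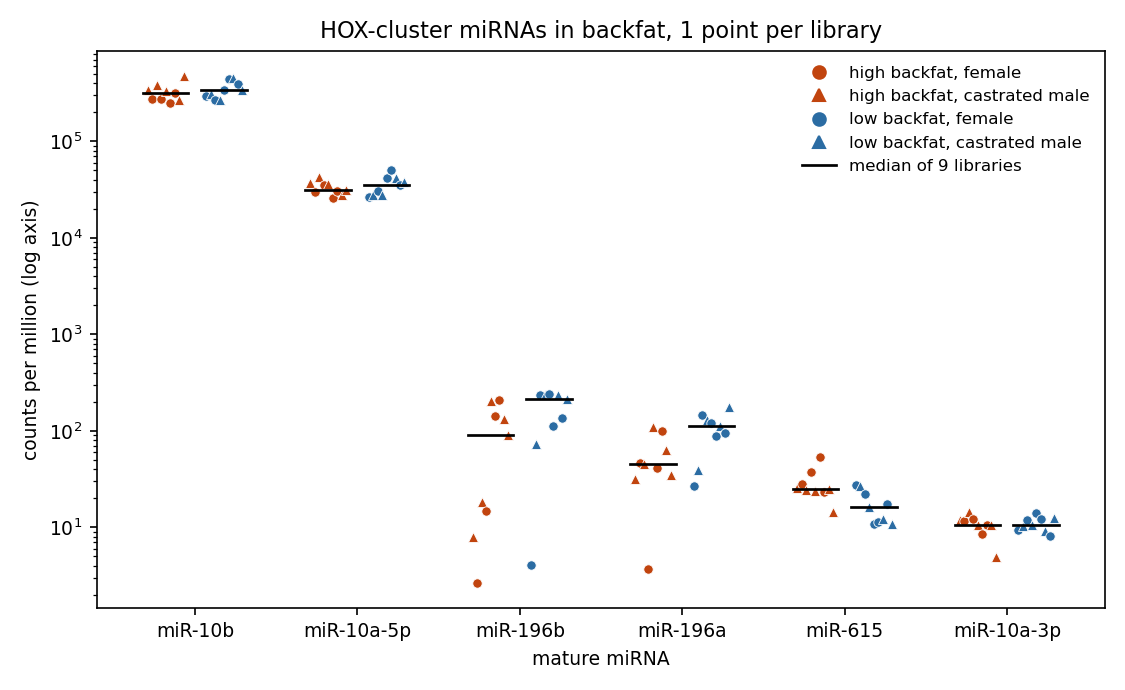
CPM of 6 members in each of the 18 libraries (log axis), coloured by backfat class, with circles for females, triangles for castrated males and a bar at the median of 9 libraries. The miR-10 levels lie close together within a member, while miR-196b runs from 2.67 to 240 CPM and miR-196a from 3.73 to 177 CPM.

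The abundant members were among the steadier miRNAs and the miR-196 genes among the least steady. The SD of log2 CPM over 18 libraries was 0.29 for miR-10b and 0.28 for miR-10a-5p, ranks 171 and 178 of 221 tested miRNAs from the most variable, where the median miRNA had 0.40. miR-196b-3p (2.19) and miR-196b (2.17) held ranks 3 and 4, and miR-196a (1.301) rank 19. The SD of miR-196b-3p, with counts in 10 libraries and 68 at most, depends on the prior count of 2 that stands in for zeros. miR-615 (0.64) held rank 48. In libraries from whole tissue, fewer cells of a type and less of a miRNA per cell cannot be told apart.

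The study's main question is which small RNAs differ between pigs of high and low backfat. With sex in the model, edgeR's quasi-likelihood test put 8 of 221 miRNAs past an adjusted p of 0.05, or 3.62%, and none of the 7 members was among them. That count of 8 was not steady: it was 13 without high 6, 0 without high 1, high 3, high 9, low 5, low 6 or low 9, each left out alone, and 0 with age added. At an unadjusted p under 0.05 there were 54 of 221 miRNAs and 2 of 7 members, miR-615 and miR-196a. DESeq2's Wald test called 22 miRNAs, 1 of them a member (miR-615), and limma, run on the deposited normalised counts as log2(value + 1), called 0. The fitted value was higher in the high class for 1 member and lower for 6, with a median log2 difference of -0.13, beside 118 lower and a median of -0.03 over all 221.

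The levels of the miR-10 pair overlapped widely between the classes. miR-10b ran from 250007 to 474799 CPM in the high class (median 315378) and from 265292 to 451170 CPM in the low class (median 341264). The ranges cover nearly the same interval, and the highest single library by CPM, high 9, was of the high class. As a share of library counts the highest value was instead of the low class, 40.4% beside 38.2% at most in the high class. The log2 difference, high minus low, was -0.13 (SE 0.14, edgeR adjusted p = 0.597). miR-10a-5p ran from 25724 to 42851 CPM in the high class (median 31295) and from 26728 to 50823 CPM in the low class (median 35233), a log2 difference of -0.11 (SE 0.14, adjusted p = 0.627). Its opposite arm miR-10a-3p ran from 4.90 to 14.5 CPM (median 10.6) and from 8.06 to 14.1 CPM (median 10.4), a difference of -0.02 (SE 0.18, adjusted p = 0.93).

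Within a library the near-identical pair can be compared free of scaling. The ratio of miR-10a-5p to miR-10b counts was 0.0659 to 0.129 in the high class and 0.0888 to 0.122 in the low class. Its mean log2 was -3.29 ± 0.26 for the high libraries and -3.29 ± 0.19 for the low ones (SD over 9 libraries), and an exact two-sided permutation test of the 48620 splits gave p = 0.95. The direction of this difference turned when single libraries were left out and within 2 of the 4 runs of codes, so no direction is given. The lowest ratio was that of high 9, the library with the most miR-10b by CPM.

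miR-196a lies in the HOXB and HOXC clusters as a pair of gene copies. Its level ran from 3.73 to 110 CPM in the high class (median 45.4) and from 26.9 to 177 CPM in the low class (median 113). All 9 high libraries lay below the low-class median and 5 of 9 low libraries lay above every high library, yet the ranges overlapped. The log2 difference was -1.008 (SE 0.44, unadjusted p = 0.0325, adjusted p = 0.167 in edgeR). High 4, with 69 counts of miR-196a, stood lowest, and without it the difference was -0.82 (edgeR adjusted p = 0.167). By run of library codes, the high libraries had 31.8 and 46.5 CPM and the low libraries 26.9 and 39.2 CPM from U966, and 45.4 and 3.73 against 147 and 129 CPM from U074. From U134 the high libraries had 40.8 to 110 CPM and the low libraries 88.2 and 121 CPM, and from AC485 the high library had 34.5 CPM and the low libraries 94.2 to 177 CPM.

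miR-196b ran from 2.67 to 208 CPM in the high class (median 90.8) and from 4.05 to 240 CPM in the low class (median 214). Again all 9 high libraries lay below the low-class median. The log2 difference was -0.87 (SE 0.71, adjusted p = 0.48), with a wide error. The libraries fell into separate clusters. In 5 libraries the level was 18.3 CPM or less and in the other 13 it was 73.0 CPM or more. The 5 were high 1 (7.86 CPM), high 2 (2.67), high 3 (18.3), high 4 (14.8) and low 1 (4.05). They held 68 to 354 counts of miR-196b in libraries of 13592178 to 24615395 counts, and the other 13 libraries had 9601510 to 34588252 counts, so the ranges of depth overlapped.

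All 5 libraries of low miR-196b came from 2 of the 4 runs of library codes (the plot by run of codes). In the run from U966, the high libraries had 7.86 and 2.67 CPM and the low libraries 4.05 and 73.0 CPM. From U074, the high libraries had 18.3 and 14.8 CPM and the low libraries 235 and 236 CPM. From U134, the 4 high libraries had 202, 142.4, 208 and 131 CPM and the 2 low libraries 240 and 112 CPM. From AC485, the high library had 90.8 CPM and the low libraries 233, 137.2 and 214 CPM. Both classes thus overlapped in the runs from U966 and U134 and did not overlap in the other 2. With the run of codes as a further term, miR-196b passed the threshold with a log2 difference of -2.04 (SE 0.54, edgeR adjusted p = 0.0484). How many of all miRNAs passed with that term is not given here, so no background share stands beside this call. The same term gave -1.11 for miR-196a (SE 0.48, adjusted p = 0.254) and 0.73 for miR-615 (SE 0.24, adjusted p = 0.117). Over all alternatives run, the adjusted p of miR-196b ran from 0.0484 to 0.865. The part of the run of codes in the level of miR-196b was not tested further.

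**Figure D2:**
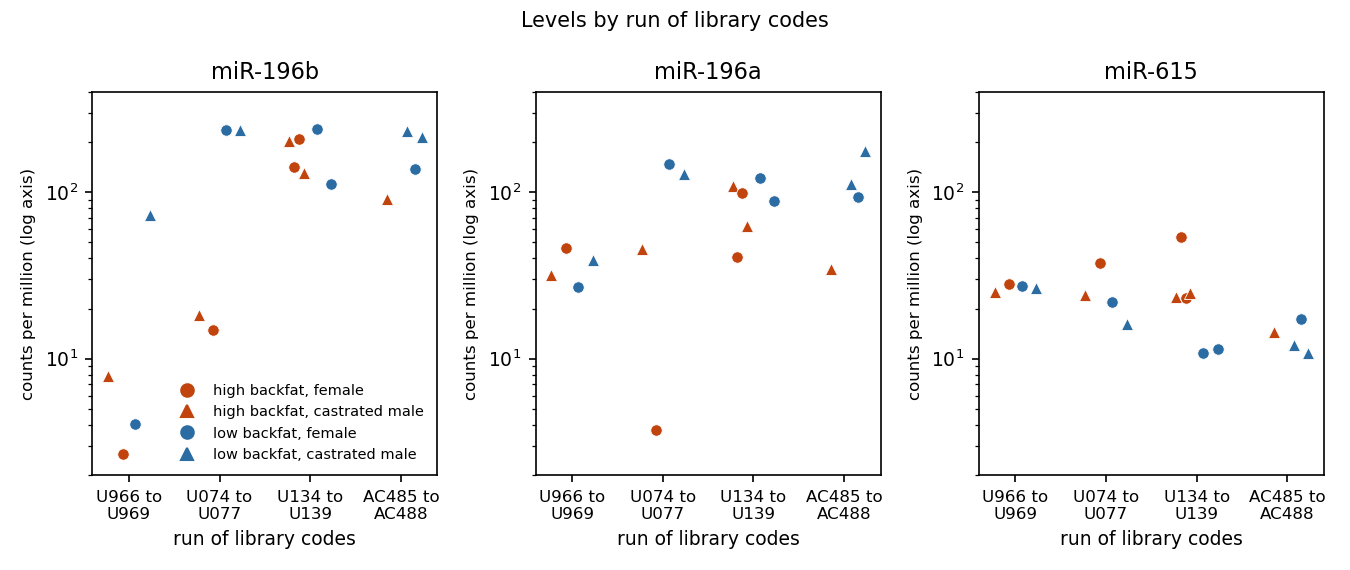
CPM of miR-196b, miR-196a and miR-615 (log axis) by run of library codes, coloured by class, with circles for females and triangles for castrated males. The 5 miR-196b values of 18.3 CPM or less all lie in the runs from U966 and U074, and the miR-615 values in the run from AC485 lie at 17.3 CPM or less in both classes.

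miR-196b-3p, the minor arm, stood at the limit of detection. It was listed at 0 in 6 of 9 high libraries and 2 of 9 low libraries, and its highest level was 4.30 CPM in low 9. The table lists no value under 2 or 3 counts in a library, so 0 means too few reads to be listed. It had no form with an exact match to the annotated sequence. The fitted difference was -2.09 on the log2 scale (SE 1.02, adjusted p = 0.21), a value that depends on how zeros are handled.

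miR-615, encoded inside HOXC5, had a higher fitted level in the high class. It ran from 14.5 to 53.9 CPM in the high class (median 24.7) and from 10.8 to 27.3 CPM in the low class (median 16.1). Of the 9 high libraries, 8 lay above the low-class median and 3 above every low library, and 4 low libraries lay below every high library. The log2 difference was 0.73 (SE 0.23, unadjusted p = 0.00538, adjusted p = 0.0705 in edgeR). It passed with DESeq2's Wald test (0.75, SE 0.24, adjusted p = 0.0288) and without low 2 (0.92, SE 0.22, edgeR adjusted p = 0.0497). The count over all miRNAs without low 2 is not given here. Over all alternatives run, the difference ran from 0.45 to 1.07 and the adjusted p from 0.0288 to 0.43.

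By run of codes, miR-615 did not separate the classes in the run from U966, with 25.3 and 28.1 CPM in the high and 27.3 and 26.5 CPM in the low libraries. From U074 the high libraries had 24.1 and 37.7 CPM and the low libraries 21.9 and 16.1 CPM. From U134 the high libraries had 23.5, 53.9, 23.1 and 24.7 CPM and the low libraries 10.8 and 11.4 CPM. From AC485 the high library had 14.5 CPM and the low libraries 12.1, 17.3 and 10.8 CPM.

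Sex and its combination with class gave no call among the members. Castrated males against females, with class as a covariate, gave 0 of 221 calls (0%) in edgeR, 17 at an unadjusted p under 0.05 and 0 with DESeq2. No member was under an unadjusted p of 0.05 there, and miR-615 differed by -0.39 on the log2 scale (SE 0.23, adjusted p = 0.628), or by -0.21 without high 6. High against low within castrated males gave 9 of 221 calls (4.07%) and no member, a count that ran from 2 without low 9 to 14 without low 2 or high 6. miR-196b-3p had an unadjusted p of 0.0136 there (adjusted p = 0.146), and DESeq2 called none of the members. With the run of codes as a term, 2 members passed within castrated males, each with an edgeR adjusted p of 0.0436. They were miR-196b (-2.53, SE 0.68) and miR-196b-3p (-5.65, SE 1.404), the latter on 3 castrated low libraries and 1 castrated high library with counts. How many of all miRNAs passed in that fit is not given here either.

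High against low within females gave 0 of 221 calls (0%) in edgeR, with 20 at an unadjusted p under 0.05 and 0 with DESeq2. Among females, miR-615 had 28.1, 37.7, 53.9 and 23.1 CPM in the 4 high libraries and 27.3, 21.9, 10.8, 11.4 and 17.3 CPM in the 5 low libraries. The log2 difference was 1.009 (SE 0.32, unadjusted p = 0.00578, adjusted p = 0.271). Among castrated males it was 0.45 (SE 0.33, adjusted p = 0.427), and it ran from 0.29 without low 9 to 0.81 without low 2. The difference of the class effect between the sexes was itself tested. It gave 0 of 221 calls (0%) in edgeR, 25 at an unadjusted p under 0.05 and 3 with DESeq2, with no member among either, and for miR-615 the value was -0.56 (SE 0.46, adjusted p = 0.741). With single libraries left out this value ran from -0.77 without low 1 to -0.20 without low 2.

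Across libraries, the CPM of miR-10b and miR-10a-5p went together, as did that of miR-196b and miR-196a. The arms of the miR-10a hairpin went together less closely. On log2 CPM, 5 relations among members were computed, with permutation tests of 100000 resamples and Benjamini-Hochberg adjustment over the 5. They were not among the planned tests, and the adjustment does not cover the other possible pairs of members, which were not computed. miR-10b and miR-10a-5p had r = 0.69 and rho = 0.74 over 18 libraries (permutation p = 0.00171 and 0.00089, adjusted 0.00495 and 0.00222), and without the 2 libraries farthest from the median of miR-10b r was 0.83. For miR-196b with miR-196a r was 0.66 and rho 0.86 over 18 libraries (permutation p = 0.00297 and 3e-05, adjusted 0.00495 and 0.00015). Because miR-196b fell into clusters, this relation is also given over the 13 libraries above 50 CPM, a cut that lies between the clusters. There r was 0.85 and rho 0.87 (permutation p = 0.00053 and 0.00015, adjusted 0.00265 and 0.00075), and r was 0.69 without the 2 farthest. Within the 6 libraries of the run from U134, r was 0.62 (exact permutation p = 0.201). miR-10b and miR-615 went in opposite directions, with r = -0.67 and rho = -0.61 over 18 libraries (permutation p = 0.00263 and 0.00902, adjusted 0.00495 and 0.0113) and r = -0.61 without the 2 farthest. Within the run from U134 that r was -0.84 (exact permutation p = 0.0278, adjusted p = 0.0695), and -0.60 without the 2 farthest. For miR-10a-5p with miR-10a-3p r was 0.39 and rho 0.55 over 18 libraries (permutation p = 0.104 and 0.0181). That r was 0.28 without the 2 farthest, and 0.32 over the 13 libraries above 50 CPM of miR-196b (permutation p = 0.294). For miR-196a with miR-615 r was -0.62 and rho -0.71 (permutation p = 0.0056 and 0.00133, adjusted 0.007 and 0.00222), and -0.58 without the 2 farthest. Within the run from U134 the latter r was -0.79 (exact permutation p = 0.0694) and was -0.02 without the 2 farthest, so there it rests on those libraries. The other runs hold too few libraries for a correlation. All these values share the scaling of their library, in which miR-10b is itself a large share. Over 18 libraries miR-10b was 33.0% ± 3.40 of counts but 334626 ± 69165 CPM after scaling (mean ± SD), a wider relative spread. A shared scaling factor can by itself make levels go together, so these p-values do not separate a joint level from the scaling. Relations between shares of library counts were not computed.

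The miRNAs most like each member over 18 libraries, by Spearman's rho of log2 CPM and with no test, included other members for the miR-196 and miR-10 miRNAs and none for miR-615. These rho values share the same library scaling. miR-196a was most like miR-196b (0.86), miR-196b-3p (0.79) and miR-19b (0.79). miR-196b was most like miR-196a (0.86), miR-374b-5p (0.83) and its own minor arm (0.81), and miR-196b-3p was most like miR-196b (0.81), miR-196a (0.79) and miR-193a-3p (0.71). miR-10b was most like miR-98 (0.84), a let-7 family miRNA, the red blood cell miR-451 (0.81) and miR-10a-5p (0.74). miR-10a-5p was most like miR-98 (0.77), miR-10b (0.74) and miR-29c (0.69). miR-10a-3p was most like miR-10a-5p (0.55), let-7d-3p (0.48) and miR-221-3p (0.48). miR-615 was most like miR-2320-5p (0.86), miR-1343 (0.85) and miR-7134-5p (0.75).

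Each member is a family of read sequences, called forms here, that share a hairpin arm but differ at their ends or carry mismatches. miR-10b had 750 forms, miR-10a-5p 574, miR-196b 54, miR-196a 36, miR-615 and miR-10a-3p 10 each and miR-196b-3p 3. Reads with the exact annotated sequence were 69.9% ± 2.56 of miR-10b and 54.1% ± 2.84 of miR-10a-5p (SD, n = 18 libraries). They were 75.8% ± 10.23 of miR-10a-3p, 56.1% ± 7.83 of miR-615, 32.0% ± 3.11 of miR-196b and 22.1% ± 3.74 of miR-196a. The annotated form was therefore not the leading form of miR-196a.

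**Figure D3:**
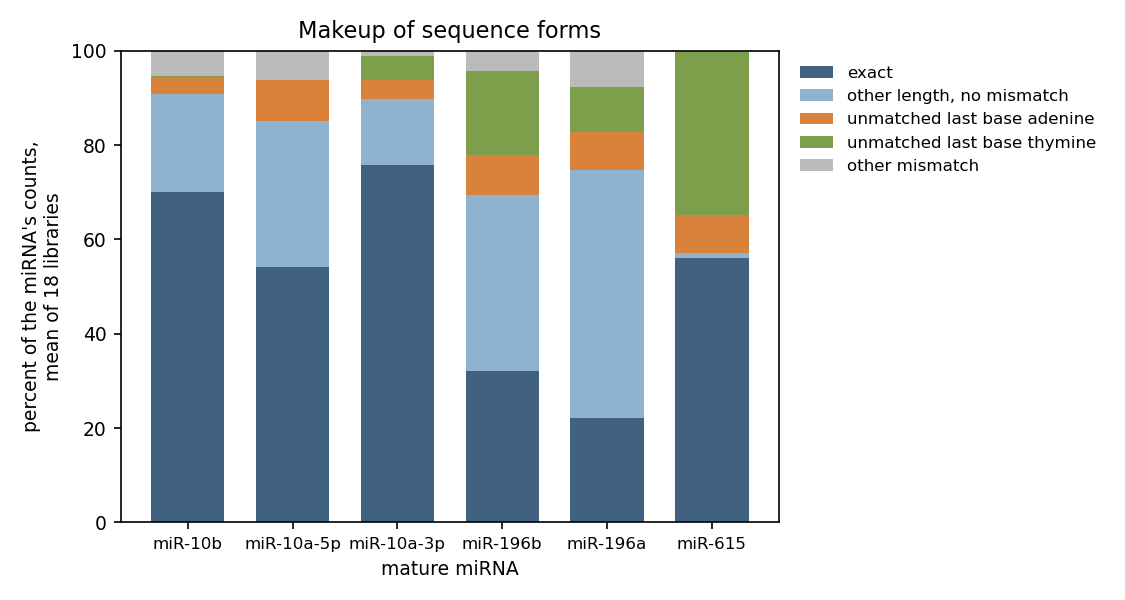
Percent of each member's counts by form, as the mean of 18 libraries: the exact sequence, other lengths with no mismatch, forms whose last base is an unmatched adenine or thymine, and other mismatches. The miR-10 forms are mostly exact or of other length, and 34.5% of miR-615 and 17.9% of miR-196b counts end in an unmatched thymine.

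Many further reads start 1 base downstream, which moves the seed by 1 base. They are shown because the bases that pair with targets then differ. Capitals mark bases 2 to 8 of each read.
miR-10a-5p, 1 base downstream: aCCCTGTAgatccgaatttgt
miR-10b, 1 base downstream: aCCCTGTAgaaccgaatttgt
miR-10a-3p, 1 base downstream: aAATTCGTatctaggggaat

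All forms with this start made up 19.1% ± 1.58 of miR-10a-5p, from 15.2% to 23.1% over the 18 libraries. They made up 11.3% ± 1.07 of miR-10b, from 8.93% to 13.9%. miR-10a-5p was above miR-10b in 18 of 18 libraries, by 7.87 ± 0.67 percentage points, and an exact two-sided sign-flip permutation test gave p = 7.63e-06, the smallest that 18 libraries can give. Of miR-10a-3p they made up 8.67% ± 3.65, and in miR-196a, miR-196b and miR-615 no such share reached a mean of 1%.

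The members of the miR-10 pair differed from each other at the 3′ end as well. Forms that end 1 base beyond the annotated end were 19.0% ± 2.41 of miR-10a-5p and 11.1% ± 1.73 of miR-10b. Forms whose last base is an adenine that the hairpin does not have were 8.64% ± 0.90 of miR-10a-5p and 3.61% ± 0.26 of miR-10b. Both shares were higher for miR-10a-5p in 18 of 18 libraries (each p = 7.63e-06, exact sign-flip permutation test, the smallest possible). Mismatches inside the read did not separate the pair, with 4.80% ± 2.15 of miR-10a-5p and 4.81% ± 2.05 of miR-10b (exact sign-flip permutation p = 0.87). In all, 18 shares were compared in this way for the miR-10 and miR-196 pairs, and adjusted over them the smallest p was 1.14e-05.

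At the 3′ end, miR-196 and miR-615 carried thymine. The forms below are shown because each is among the 5 most abundant of its member, and the capital marks a last base that does not match the hairpin.
miR-615, thymine at the end: tccgagcctgggtctccctctT
miR-196b, thymine at the end: taggtagtttcctgttgttgggT
miR-196a, thymine at the end: taggtagtttcatgttgttgggT
miR-196b, adenine at the end: taggtagtttcctgttgttggA

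An unmatched last thymine was found in 34.5% ± 5.36 of miR-615 counts, 17.9% ± 1.92 of miR-196b and 9.61% ± 3.68 of miR-196a. It was found in 5.01% ± 3.26 of miR-10a-3p counts, and in a mean of 0.182% of miR-10b and 0.0999% of miR-10a-5p counts. The form of miR-615 shown was 32.2% ± 3.73 of its counts. miR-196a was below miR-196b in 18 of 18 libraries, with a mean difference of -8.32 ± 2.47 percentage points (p = 7.63e-06, exact sign-flip permutation test, the smallest possible). An unmatched last adenine was 7.95% of miR-196a and 8.48% of miR-196b, a mean difference of -0.53 ± 1.42 percentage points (exact sign-flip permutation p = 0.128). The same adenine share was 8.08% ± 6.19 of miR-615.

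The hairpins of the miR-196a gene copies differ in the base after the annotated end, and forms are given by the hairpin they are listed under. Capitals mark the bases beyond the 22 annotated.
listed under the HOXC copy only: taggtagtttcatgttgttgggA
listed under the HOXC copy only: taggtagtttcatgttgttgggAT
listed under the HOXB copy only: taggtagtttcatgttgttgggC

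The form with A, listed only under the hairpin of MIR196A-2 in the HOXC cluster, held 12723 counts and was found in 18 libraries. It was the most abundant form of miR-196a, with 40.8% ± 2.84 of its counts, above the exact sequence. The longer form with AT held 634 counts in 15 libraries. The form with C, listed only under the hairpin of MIR196A-1 in the HOXB cluster, held 13 counts in 1 library. Mismatch-free forms listed only under the HOXC copy were 37.3% to 47.2% of miR-196a counts in each library, and those of the HOXB copy were 0.0402% of all miR-196a counts. Sequences listed under both hairpins held 16188 counts and cannot be assigned. A form with a template-encoded A and one with an added A cannot be told apart by sequence. The shares listed under the HOXC copy are thus listings and not an assignment to that gene.

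In the comparison of classes form by form, edgeR tested 7330 listings of a sequence under a hairpin and called 0 (0%), with 643 at an unadjusted p under 0.05. Of the members' 682 tested forms 0 were called and 43 had an unadjusted p under 0.05, or 6.30% beside 8.77% of all listings. DESeq2's Wald test called 258 listings, 6 of them members' listings, which hold 5 sequences. All 12 tested forms of miR-196a had lower fitted values in the high class, 5 with an unadjusted p under 0.05, and 11 of the 12 of miR-196b. All 4 tested forms of miR-615 had higher values, 2 with an unadjusted p under 0.05. Over all listings 3603 were higher and 3727 lower. The forms of 1 miRNA are parts of its summed count in the same libraries. Their shared direction thus follows that of the sum and adds no separate evidence. The exact sequences differed by -0.93 for miR-196a (SE 0.42, adjusted p = 0.517), -0.83 for miR-196b (SE 0.74, adjusted p = 0.93) and 0.64 for miR-615 (SE 0.28, adjusted p = 0.5).

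The forms of the miR-10 pair with the lowest p were the form 1 base longer and the form with G7C, and both are shown in lower case throughout to set them beside the exact sequences.
miR-10b, 1 base longer: taccctgtagaaccgaatttgtg
miR-10a-5p, 1 base longer: taccctgtagatccgaatttgtg
miR-10b, G7C: taccctctagaaccgaatttgt

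The longer form of miR-10b differed by 0.27 on the log2 scale (SE 0.08, unadjusted p = 0.00539, adjusted p = 0.241 in edgeR) and was among those DESeq2 called. The longer form of miR-10a-5p differed by 0.24 (SE 0.09, unadjusted p = 0.0123, adjusted p = 0.341). The exact forms went the other way, by -0.12 (SE 0.10, adjusted p = 0.912) for miR-10b and -0.13 (SE 0.12, adjusted p = 0.929) for miR-10a-5p.

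Shares within a member are free of library scaling, and 53 such shares with a mean of at least 1% were compared between classes with exact two-sided permutation tests. None passed after adjustment, and 11 had an unadjusted p under 0.05, among them the 3 lowest p, all for forms ending 1 base beyond the annotated end. For miR-10b this share was 12.1% ± 1.08 for high and 10.1% ± 1.72 for low libraries (exact permutation p = 0.00485, adjusted p = 0.0756). It was 20.3% ± 1.22 and 17.6% ± 2.55 for miR-10a-5p (exact permutation p = 0.00259, adjusted p = 0.0687), and 44.2% ± 1.68 and 40.6% ± 2.52 for miR-196b (exact permutation p = 0.00128, adjusted p = 0.0676). For miR-196a it was 54.8% ± 4.82 and 56.0% ± 2.19 (exact permutation p = 0.601), and without high 4 this difference turned to 0.267 percentage points. The p-values are adjusted over the 53 shares, and the SD is over 9 libraries in each class.

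For miR-10b the low libraries of the run from AC485 were the lowest, at 6.63% to 10.1%, beside 10.9% in the high library of that run. From U134 the 4 high libraries had 11.6% to 13.6% and the low libraries 10.18% and 10.4%. From U966 the classes did not separate, with 10.7% and 11.5% in the high and 11.4% and 11.5% in the low libraries, and from U074 they had 11.8% and 11.9% against 10.8% and 11.7%. When single libraries were left out, the shares called ran from 0 to 4: 2 without low 8, 3 without low 3, and 1 each without high 4 and low 5. Without low 1 there were 4. The 3 called without low 3 were the longer ends of miR-10a-5p, miR-10b and miR-196b, each with an adjusted p of 0.0392 by exact permutation tests.

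**Figure D4:**
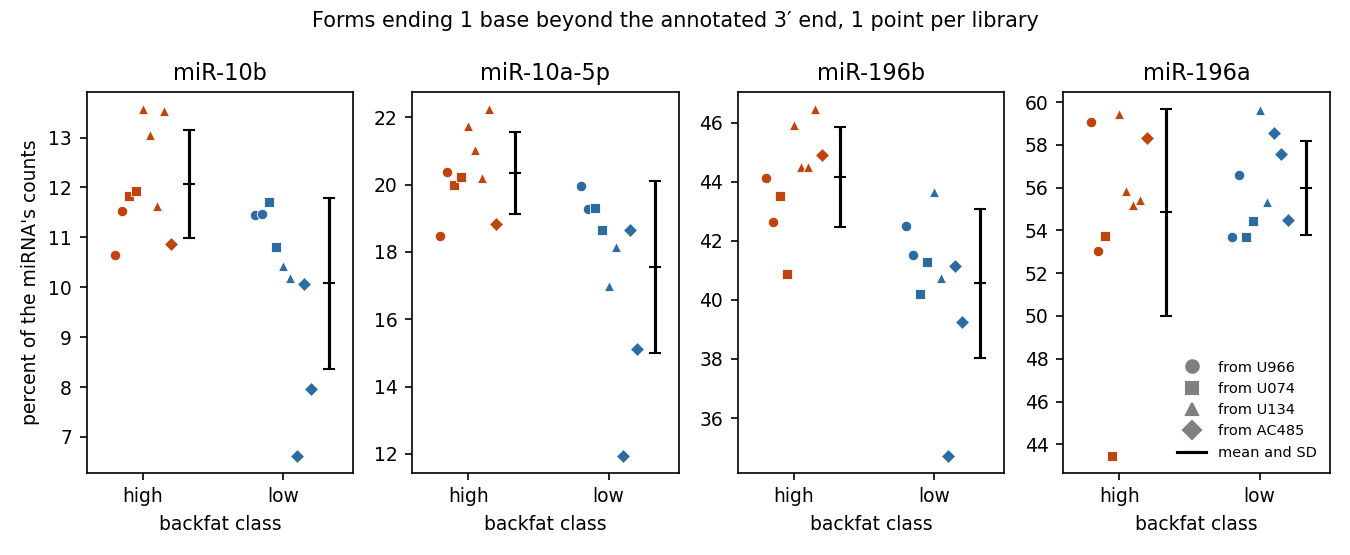
Percent of a member's counts in forms that end 1 base beyond the annotated 3′ end, 1 point per library, with the marker giving the run of library codes and the bar the mean and SD of 9 libraries. High libraries lie higher on average for miR-10b, miR-10a-5p and miR-196b, with overlap of the classes in each, and not for miR-196a; the vertical axes do not start at 0.

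Forms with a mismatch inside the read gave a picture that was nearly the same for both members of the miR-10 pair. Over 22-base reads with the annotated ends, 63 substitutions were read in both miR-10a-5p and miR-10b, and their shares went together with a Spearman rho of 0.99 across substitutions, which are not independent replicates. The most frequent was C3T, in 1.84% of miR-10a-5p and 1.90% of miR-10b reads of that length, followed by A2T with 1.11% and 1.13%. The other A-to-T substitutions of miR-10b outside position 2 had 0.00882% to 0.0181%. Both leading substitutions varied between libraries, C3T from 0.654% to 3.68% and A2T from 0.0938% to 2.53% of miR-10b. T22A, at the last base, was 0.715% of miR-10a-5p and 0.471% of miR-10b.

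**Figure D5:**
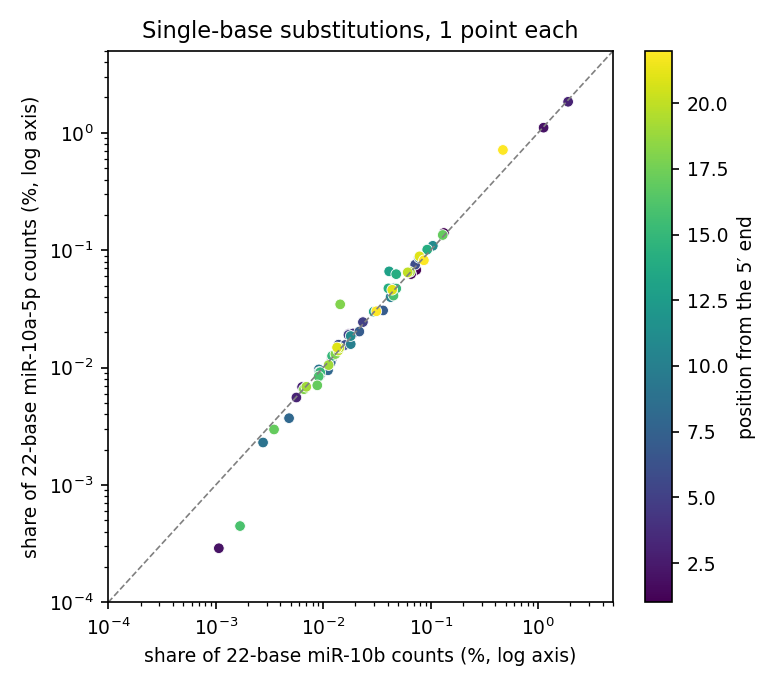
Share of 22-base reads with each of 63 single-base substitutions in miR-10a-5p against miR-10b (both axes log, in percent, pooled over 18 libraries), coloured by position from the 5′ end, with a dashed line of equal shares. Most points lie near the line, and farther off are T18A (0.0346% of miR-10a-5p and 0.0144% of miR-10b), C13T (0.0660% and 0.0412%) and T22A (0.715% and 0.471%) on the miR-10a-5p side, and the rare A16C and A2C on the other.

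The substitution profile also joined libraries in pairs. For each library the nearest other library, by the mean absolute log2 difference over the 63 shares, was the same from miR-10a-5p as from miR-10b in 18 of 18 libraries, and 8 pairs chose each other. They were high 1 with high 3, high 2 with low 2, high 4 with low 3, high 5 with low 6, high 6 with high 8, high 7 with low 5, low 1 with low 4 and low 8 with low 9. The labels put 2 samples on a lane and do not say which, and whether these pairs are lanes was not tested. The G7C form printed above shows such a pair: it was 0.162% of 22-base miR-10b reads in high 8 and 0.154% in high 6, and 0.00706% at most elsewhere. Its log2 difference between classes, 2.98 (SE 0.91, edgeR adjusted p = 0.218), rests on these 2 libraries. The level of miR-196b lay far apart within 3 of the 8 pairs: it was 14.8 CPM in high 4 and 235 in low 3, 4.05 in low 1 and 236 in low 4, and 2.67 in high 2 and 73.0 in low 2. Within the other pairs it was closer, with 7.86 and 18.3, 202 and 112, 142.4 and 131, 208 and 240, and 137.2 and 214 CPM.

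The relatives outside the HOX clusters gave 0 of 3 calls between classes. miR-99a ran from 2370 to 3060 CPM in the high class (median 2750) and from 2371 to 3648 CPM in the low class (median 3464), with a log2 difference of -0.24 (SE 0.10, unadjusted p = 0.0214, adjusted p = 0.15). All 9 high libraries lay below the low-class median and 6 low libraries lay above every high library. miR-99b differed by 0.28 (SE 0.19, adjusted p = 0.377) and miR-100 by -0.07 (SE 0.20, adjusted p = 0.848).

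Markers of other cell types were read beside these values. miRNAs abundant in fat summed to 205600 to 404151 CPM for high and 304976 to 400694 CPM for low libraries, and all 10 arms of that list were found. Skeletal muscle miRNAs (miR-1, miR-133a, miR-133b, miR-206, miR-499) summed to 48.3 to 131 CPM in the high class (median 65.6) and 78.9 to 214 CPM in the low class (median 142.6), and 0 of the tested arms was called between classes. In the 5 libraries with little miR-196b they summed to 48.3 to 131 CPM and in the other 13 to 52.0 to 214 CPM. Red blood cell miRNAs (miR-144, miR-363, miR-451, miR-486) summed to 3178 to 6763 CPM against 2676 to 10474 CPM, high before low. White blood cell miRNAs had 1076 to 3386 and 1402 to 3037 CPM, and the endothelial miR-126 arms 11374 to 41786 and 24952 to 37943 CPM. The epithelial list, of which only miR-205 and miR-429 were listed, had 1.24 to 16.0 and 1.96 to 49.9 CPM, the liver miR-122 0 to 8.71 and 0 to 43.1 CPM, and the neural list 109 to 172 and 97.7 to 161 CPM. The part of any of these cell types in the levels of the members was not tested.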

How the data were processed

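Small RNA was extracted with Trizol and sequenced as single reads with the TruSeq Small RNA kit, per the labels' protocols. The authors deposited raw counts per read sequence and hairpin, and a normalised signal equal to those counts divided by 1 size factor per library (0.464 to 1.93). Bowtie 0.12.7, HTSeq, DESeq2 1.4.5 and the build Sscrofa10.2 stand in the submitters' processing notes, and what each was used for is not stated there. For adapter trimming and mismatch settings nothing is given in the sources used here. Mismatches and sequencing errors cannot be told apart. In each library the lowest deposited count above 0 is 2 or 3. The 2 columns that match no sample were not used.

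Each sequence was counted once per mature miRNA, and a sequence shared by miRNAs counts under each: 0.272% of miR-10a-5p counts are shared with miR-10b and 0.541% of miR-196a counts with miR-196b. Tests used edgeR 4.0.16 in R 4.3.3 (TMM, filterByExpr with a minimum count of 10, quasi-likelihood F test, Benjamini-Hochberg, threshold 0.05), over all 221 miRNAs or 7330 listings that passed, with log2 CPM at a prior count of 2. Contrasts within a sex came from 1 fit of 4 cells of sex by class. P-values of these fits measure the spread between libraries, 1 per animal, in which animals and library handling are not separated. Shares and ratios used exact permutation tests in SciPy 1.17.1. DESeq2 1.42.0 and limma 3.58.1 were alternatives, and the fits were tested on simulated data. Depth was 9601510 to 34588252 counts per library. Named were all members, forms among their 5 most abundant or 3 lowest p, the 3 miRNAs most alike and the miR-99 and miR-100 relatives. The G7C profile, the pairs of libraries and the ratios other than miR-10a-5p to miR-10b were chosen after their values were seen. Members and lists were chosen with earlier results of these data known. Promoters, proteins and genome coordinates were not used here.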

Additional observations from a re-analysis of the deposited data

Results flagged for a closer look

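Of 46 groups of 9 libraries looked at, 9 had 1 library far from the other 8 (a gap over 0.493 of the group's range, which chance gives in about 1 of 20 groups). High 9, the library with the most miR-10b by CPM, had a log2 ratio of miR-10a-5p to miR-10b of -3.92. The other high libraries had -3.38 to -2.96. Its log2 ratio of miR-10a-5p to miR-10a-3p was 12.6 beside 11.3 to 11.7. Low 1, 1 of the libraries with little miR-196b, had a log2 ratio of miR-196b to miR-196a of -2.73 beside 0.27 to 1.05 in the other low libraries, and an unmatched last thymine in 15.0% of miR-196b, a value that rests on 80 counts. Low 9 had 4.30 CPM of miR-196b-3p beside 2.03 CPM or less. High 6 had the most forms starting 1 base downstream, 23.1% of miR-10a-5p beside 18.2% to 20.4% and 13.9% of miR-10b beside 10.6% to 11.9% in the other high libraries. High 4 had 43.5% of miR-196a in forms 1 base longer, from 69 counts, beside 53.0% to 59.4%, and low 7 had 34.7% of miR-196b in such forms, beside 39.3% to 43.6%. No cause of these values was tested.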

How the results depend on the processing

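No member passed the threshold between classes in edgeR, and most alternatives left this as it was. DESeq2's Wald test called 1 (miR-615) and adding the run of library codes called 1 (miR-196b). Leaving out single libraries gave 0 to 1, the 1 being miR-615 without low 2. Within castrated males, adding the run of codes called 2. For the run of codes, and for the class contrast without low 2, the counts over all miRNAs are not given here. Those member calls thus have no background share beside them. Among the members' sequence forms DESeq2 called 6. Leaving out single libraries gave 0 to 0 calls there, and 0 to 4 calls among the shares of forms. miR-196a stayed lower in the high class in all 35 alternatives and miR-615 stayed higher in all 35.

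Small differences changed sign. Castrated males alone gave 0.0661 for miR-10a-5p, 0.0696 for miR-10b and 0.0132 for miR-100 on the log2 scale. For miR-10a-3p the value was 0.00322 with no filter, 0.0353 in limma, 0.0596 with all listings summed, 0.00514 without the libraries from AC485 and 0.00163 with the exact sequence only, and -0.0916 to 0.0709 with single libraries left out. For miR-100 it was 0.0194 in limma, 0.0114 with all listings, 0.0860 with the exact sequence and 0.0799 without the libraries from U966, and -0.166 to 0.0358 with single libraries left out. The share of miR-196a ending 1 base longer differed by 1.19 percentage points within castrated males and by -1.73 to 0.267 with single libraries left out. The log2 ratio of miR-10a-5p to miR-10b differed by -0.547 within the run from AC485 and -0.199 within that from U134, and by -0.0334 to 0.0871 with single libraries left out. For these values the cause was not tested.

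For single listings the library size was the sum over listings; with totals over distinct sequences, a choice made after seeing the data, 15 listings were called in place of 0, none a member's. Using only sequences counted in all 18 libraries, using the exact sequence only and leaving out the U966 libraries were also chosen after seeing the data. miR-196a (69 counts in high 4), miR-196b (68 in high 2), miR-10a-3p (46 in high 9) and miR-196b-3p rest on few counts in single libraries. No paired analysis was possible because replicate numbers only follow accession order.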
